A study of Mus musculus with 6 samples.

Results

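Mitotic cells of fetal mouse intestinal mesenchyme were the 745 cells, of 9301 cells kept in 4 barcode sets and 13127 cells in the matrix, with the highest share of their transcripts from 8 genes of the last part of the cell cycle. Those genes were Aurka, Plk1, Nusap1, Ube2c, Cenpf, Hmmr, Cdc20 and Ccnb2. A cell was a member when its share lay in the top 8% of its barcode ending (A or B, defined below). A cell had to have at least 1000 genes detected and at most 5% of its unique molecular identifiers (UMIs, counted transcript molecules) from mitochondrial genes. The cells were thus chosen by the UMIs of these 8 genes, whose values are described and support nothing. The cells are called mitotic by this rule, which reads transcripts and does not separate late G2 from mitosis itself.

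Cells enter mitosis when the kinase CDK1, bound to cyclin B, becomes active. Aurora and Polo kinases then mature the spindle poles, kinetochores attach chromosomes to microtubules, and the anaphase-promoting complex destroys cyclin B and securin so that the cell can divide. Many of these genes are transcribed together from G2 onward, through promoters that carry a cell cycle genes homology region (CHR) and CCAAT boxes. The CHR is bound by the MuvB complex, with p107 or p130 as DREAM when genes are silent and with B-MYB and FOXM1 when they are active. In the fetal gut, the mesenchyme is the dividing connective tissue that surrounds the epithelium and gives rise to fibroblasts and smooth muscle.

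The study profiled small intestine of C57/BL6 embryos of Pdgfra-H2BGFP mice, which carry a nuclear green fluorescent protein under the control of Pdgfra, in 6 samples of pooled replicates. From E15.5 and E16.5 came 2 samples of live cells, titled lane 1 and lane 2. The same ages gave 1 sample enriched for CD31, CD45, EpCAM or high PDGFRA reporter. From E13.5, E14.5 and E18.5 came 2 live samples, also titled lane 1 and lane 2, and 1 enriched sample. All cells were Ter119-negative and DAPI-negative at the sort, and all groups carried the reporter allele. The deposited matrix pools all samples, and no label ties a barcode suffix to a sample, so no age or sort can be given for any cell and no comparison between ages or sorts was made. The 4 sets used here are the barcodes with suffixes 1_1 and 2_1 (ending A, sets A1 and A2) and 1_2 and 2_2 (ending B, sets B1 and B2). Since the matrix counts as 1 sample, no p-value is given. Directions are counted over the 4 sets, which may be lanes of the same cell pool and do not count as replicates. The 95% intervals reflect only the error of counting.

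To show what the rule genes have in common beside their transcripts, the 120 bases before and 20 bases after the start site are printed for 4 of them and for Cdk1, the kinase that cyclin B activates, from the RefSeq promoter table (build GRCm38.p6). Capitals mark TTTGAA, the core of the best known CHR, or its reverse complement. The 5 stretches lie at chr4:118437324-118437463 for Cdc20, chr9:70421535-70421674 for Ccnb2, chr1:189688067-189688206 for Cenpf and chr10:69352893-69353032 for Cdk1, all on the minus strand, and at chr2:164769809-164769948 on the plus strand for Ube2c.
Cdc20: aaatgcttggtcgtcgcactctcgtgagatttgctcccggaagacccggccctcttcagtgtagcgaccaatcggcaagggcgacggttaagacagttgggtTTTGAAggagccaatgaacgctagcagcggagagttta
Ccnb2: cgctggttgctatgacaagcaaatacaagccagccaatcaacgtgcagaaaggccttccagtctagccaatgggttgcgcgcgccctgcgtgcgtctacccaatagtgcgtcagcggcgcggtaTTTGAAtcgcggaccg
Cenpf: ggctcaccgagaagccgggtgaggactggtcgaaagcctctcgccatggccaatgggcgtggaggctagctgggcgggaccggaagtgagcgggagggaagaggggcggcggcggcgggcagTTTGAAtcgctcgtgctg
Ube2c: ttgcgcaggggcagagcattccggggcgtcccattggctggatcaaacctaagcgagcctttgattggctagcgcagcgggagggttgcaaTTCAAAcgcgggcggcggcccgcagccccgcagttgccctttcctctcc
Cdk1: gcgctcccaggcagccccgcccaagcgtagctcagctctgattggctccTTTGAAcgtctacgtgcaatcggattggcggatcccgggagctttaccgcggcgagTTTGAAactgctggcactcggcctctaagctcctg
In windows of 250 bases before to 50 after the start, TTTGAA was found on either strand in 7 of the 8 rule genes, in each case within 50 bases of the start, and not in Nusap1. All 8 genes were in the table. CCAAT was found in 7 of the 8.

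Among all members, the rule genes made up 46.3 to 52.8 of every 10000 UMIs in the 4 sets, against 3.16 to 5.39 in the other kept cells. Ube2c, the ubiquitin-conjugating enzyme of the anaphase-promoting complex, gave 29.1% to 32.1% of the rule UMIs of a set, and Cenpf, a kinetochore protein, gave 22.1% to 24.9%. Plk1 gave 2.67% to 4.42% and Aurka 3.14% to 3.78%. The threshold fell where cells were dense: the lowest member of ending A had 31.23 rule UMIs per 10000 and the highest cell left out had 31.15, and in ending B these values were 27.248 and 27.232. The median member had 48.7 in A and 44.8 in B, the highest 100.1 and 96.2. Of the kept cells, 24.7% in A and 55.9% in B had no UMI of any rule gene. Taken alone, Aurka, Plk1, Nusap1 and Ube2c chose 674 of the 745 cells (90.5%), and Cenpf, Hmmr, Cdc20 and Ccnb2 chose 616 (82.7%), which describes the rule's own UMIs.

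The members were 229 cells in A1, 136 in A2, 207 in B1 and 173 in B2, or 9.27%, 6.52%, 9.30% and 6.87% of the kept cells. They carried more transcripts than cells without a UMI of Mki67 or Top2a. Median UMIs per member were 17051, 18586, 6378 and 6445 in A1, A2, B1 and B2, against 9302, 10173, 3840 and 3782 in cells without a UMI of Mki67 or Top2a, a ratio of 1.66 to 1.83. All 4 sets showed this in the plot of UMIs per cell, while S-phase-high cells lay close below the members. A cell of low depth is more often without a UMI of 2 given genes, and the part of this in the ratio was not tested. Between sets, 8 barcodes of kept cells were shared, and none of these was a member in both sets that shared it. Whether any was a member in only 1 of them was not counted. Transcripts of Xist and of Y-linked genes, each with at least 2 UMIs, occurred together in 5 members of A1 (2.18%) and in none of the other 3 sets.

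**Figure D1:**
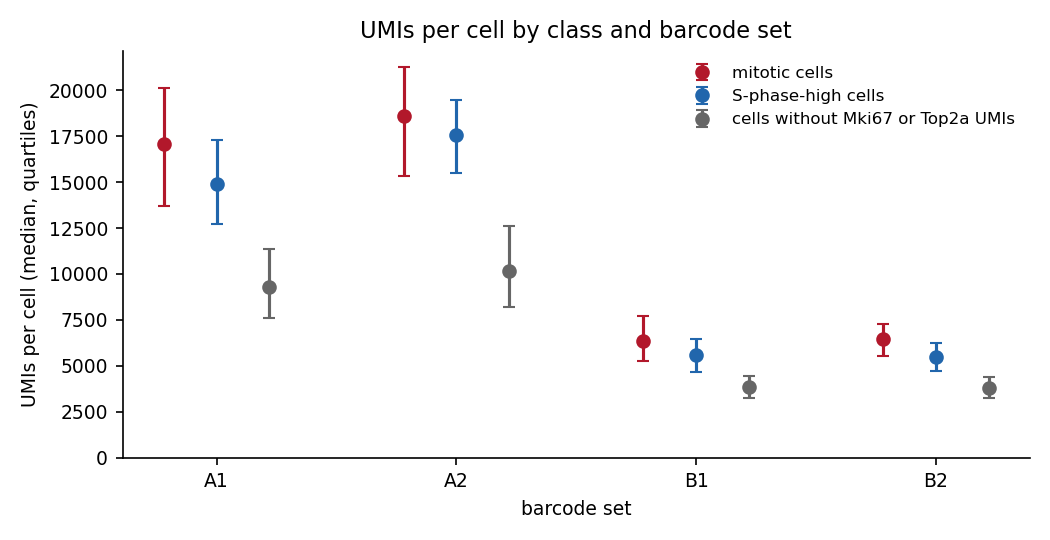
UMIs per cell in each barcode set (points, median; bars, first and last quartile) for mitotic cells (red), S-phase-high cells (blue) and cells without a UMI of Mki67 or Top2a (grey). The median of the mitotic cells is 1.66 to 1.83 times that of the cells without Mki67 or Top2a in each of the 4 sets.

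The label of mesenchyme held against its markers. Summed over 10 mesenchyme markers, members had 6983 to 8150 CPM per set, where CPM are UMIs scaled to a common total per class, with none of the 10 at 0, and 744 of 745 members had UMIs of at least 3 of them. The 10 epithelial markers summed to 29.3 to 45.4 CPM, the 10 endothelial markers to 20.0 to 27.5 CPM and the 10 blood markers to 16.3 to 57.2 CPM. At least 3 markers were present in 6 members for epithelium, 2 for endothelium, 3 for blood, 2 for enteric glia and 0 for mesothelium, and in more members for enteric neuron (17), interstitial cells of Cajal (12), PDGFRA-high mesenchyme (99), pericyte (155), erythroid cells (186) and smooth muscle (597). Enteric neuron markers summed to 36.4 to 103 CPM and pericyte markers to 180 to 280 CPM. At 0 were Higd1b of the pericyte list and Msln and Muc16 of the mesothelium list. Smooth muscle markers summed to 1197 to 1780 CPM. The 6 erythroid markers differed between endings, at 22.9 and 27.0 CPM in A1 and A2 and 1155 and 713 CPM in B1 and B2.

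Members were compared with cells of the same set that had no UMI of Mki67 or Top2a, paired 1 to 1 within 10% of total UMIs. This found partners for 506 of the 745 members. Such cells are called non-cycling for short, but the class is not free of cycling cells. Before pairing, 11 cells of the class in A and 51 in B were also S-phase-high. A gene was tested when it reached 20 CPM in 1 class in both endings, and called when it differed at least 2-fold in both endings and in 1 direction in all 4 sets. Of 5880 genes tested, 256 were higher in mitotic cells (4.35%) and 34 were lower (0.578%). Of the 256, 104 were in the lists of cycle genes, 16 were histone genes, 8 were in other lists and 128 were in no list. Among the 104 are the 10 genes used in choosing the cells or the reference. Among the 256 genes, 229 were also higher under 2 other references, the first with no matching of depth and the second with no UMI of 9 cycle genes. The 9 genes were Mki67, Top2a, Cdk1, Ccna2, Ccnb1, Birc5, Pcna, Mcm5 and Rrm2, whose own values against that reference support nothing. Of the 34 lower genes, 6 were lower under all 3.

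**Figure D2:**
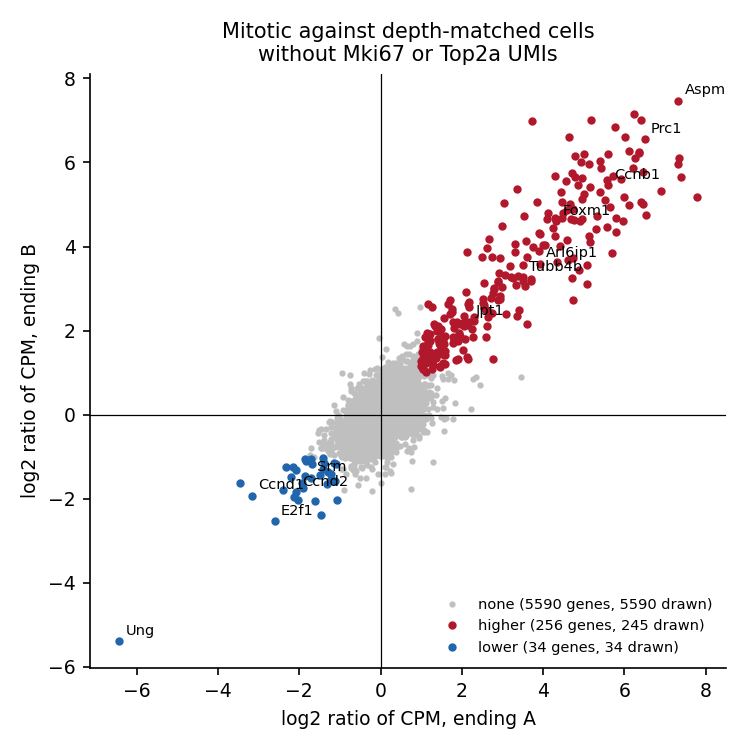
Log2 ratio of CPM in mitotic cells over depth-matched cells without Mki67 or Top2a UMIs, ending A (x axis) against ending B (y axis), 1 point per tested gene; red, the 256 called higher, of which 245 could be drawn; blue, the 34 called lower; grey, the rest. Genes with 0 UMIs in a class cannot be drawn. The called genes lie near the diagonal, from Ung at the lower left to Aspm at the upper right.

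The entry kinases and cyclins that could be tested rose. Of the 17 genes of the G2/M list, 16 reached the CPM limit and all 16 were higher. Their median log2 ratio was 4.40 in A and 4.48 in B, against -0.01 and 0.02 over all genes tested. Ccnb1, cyclin B1, stood at 323, 328, 364 and 358 CPM in members of A1, A2, B1 and B2 and at 7.37, 5.87, 13.0 and 2.74 CPM in their partners. The classes were far apart in each set, 48.4-fold in A (log2 interval 4.98 to 6.30) and 43.9-fold in B (4.67 to 6.37). Cdk1 was at 480, 476, 410 and 442 CPM against 41.4, 38.9, 17.7 and 31.5 CPM, or 11.9-fold and 17.7-fold. The partners thus held more of Cdk1 than of Ccnb1 relative to the members. Ccna2, cyclin A2, rose 31.0-fold and 25.3-fold, Aurkb, the kinase of the chromosomal passenger complex, 64.7-fold and 98.2-fold, and Cdc25c, a phosphatase that activates CDK1, 93.1-fold and 26.9-fold. The reference counts of Aurkb and Cdc25c were only 2 to 11 UMIs, which makes these folds wide. The least changed genes of the list were Wee1, the kinase that restrains CDK1 (log2 1.05 and 1.64), and Cks1b (1.44 and 1.69).

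Kinetochore and checkpoint genes were higher for 19 of 19 tested. Cenpa, the centromeric histone, was at 789, 845, 710 and 736 CPM in the 4 sets of members and at 52.1, 44.7, 36.5 and 52.1 CPM in partners. That is 16.6-fold in A and 16.5-fold in B, with little spread between sets. Cenpe, the kinetochore motor, rose 62.0-fold and 24.3-fold, and Knl1, a scaffold of the outer kinetochore, 81.8-fold and 76.1-fold. Ndc80, the microtubule coupler, was at 168 CPM in A and 77.0 CPM in B. Its partners in B had 0 UMIs, so with a floor of 3 counts over the ending its log2 ratio in B is at least 5.34. All 16 tested genes of the chromosomal passenger and cytokinesis list were higher as well. Prc1, which bundles the central spindle, rose 90.6-fold and 94.1-fold, Kif23, a motor of the midzone, 75.7-fold and 142-fold, and Birc5, survivin, 22.2-fold and 33.5-fold.

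Spindle genes and kinesins were higher for 15 of 17. Aspm, a spindle pole protein, was at 302, 317, 110 and 116 CPM in members of A1, A2, B1 and B2 and at 2.83, 0.733, 0 and 1.37 CPM in partners. Levels in ending A were above those in B in the members, and the direction held in each set. Kif11, the motor that pushes spindle poles apart, was at 383 CPM in A and 163 CPM in B against 4.48 and 1.27 CPM. Exceptions were Numa1 (log2 0.83 and 0.42) and Ran (0.21 and 0.65), the GTPase that also serves nuclear transport. Of the exit genes, 6 of 10 were higher. Ube2s, which extends ubiquitin chains for the anaphase-promoting complex, rose from 292.5 to 1214 CPM in A and from 199.5 to 1017 CPM in B, while Pttg1, securin, gave log2 ratios of 0.88 and -0.21 and was not called. The complex's own subunits Cdc16 (-0.17 and -0.40), Cdc26 (-0.28 and -0.25) and Anapc11 (0.50 and 0.63) were not called either.

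Chromatin genes of the condensin and mitotic chromatin list were higher for 14 of 17, of which Mki67 and Top2a had chosen the reference. H2afx, the histone variant H2AX, was at 1007, 1079, 589 and 545 CPM in members against 71.4, 66.7, 40.1 and 35.6 CPM, a 15.0-fold difference in both endings. Hmgb2, a DNA-bending chromatin protein, rose 7.40-fold and 8.88-fold. Replication-dependent histone genes, whose main transcripts have no poly(A) tail and are poorly read by a 3' assay, were higher for 16 of 18 tested genes. Their medians were 3.37 and 3.39 on the log2 scale. Summed, the histone genes stood at 4543, 3205, 2308 and 2404 CPM in members of A1, A2, B1 and B2 and at 372, 352, 211 and 227 CPM in partners. A1 lay above A2, a spread that came in part from Hist1h2ae, at 588 CPM in A1 and 238 CPM in A2. Many histone genes and tubulin genes have near-identical copies, so the split of counts among them is uncertain.

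Microtubule genes divided. Of 14 tested tubulins and microtubule regulators, 6 were higher: Tuba1c, Tubb4b, Stmn1, Tuba1b, Tubb6 and Tubb5. Tubb4b was at 821, 886, 626 and 628 CPM in members and 78.2, 71.1, 68.3 and 60.3 CPM in partners, 11.3-fold and 9.70-fold. Tuba1c rose 9.92-fold and 14.7-fold, whereas Tubb2a gave log2 ratios of 0.18 and 0.11 and Tubb2b 0.02 and -0.04. In the nuclear envelope and transport list only 2 of 16 were higher. These were Rangap1, the activator of RAN's GTPase, at 5.75-fold and 6.76-fold, and Lbr, the lamin B receptor, at 2.56-fold and 2.54-fold.

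Among cycle transcription factors, 4 of 7 tested were higher and 1 was lower. Foxm1, the factor that binds MuvB in G2, was at 63.8, 64.6, 45.4 and 47.1 CPM in members against 2.83, 3.67, 0 and 4.11 CPM. Lin9 and Lin54, subunits of MuvB, rose with log2 ratios of 1.87 and 1.30 for Lin9 and 1.54 and 1.45 for Lin54. E2f1, the activator of S-phase entry, was lower at 6.43, 2.78, 6.65 and 3.82 CPM against 28.9, 30.1, 22.4 and 41.1 CPM. Mybl2, which encodes B-MYB, was below 10 CPM in both classes in both endings and was not tested.

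Cyclins and inhibitors of G1 moved in both directions. Ccnd2, cyclin D2, was at 342, 416, 419 and 361 CPM in members and at 1575, 1596, 1377 and 1424 CPM in partners. Its log2 ratio was -2.08 in A (interval -2.17 to -1.99) and -1.84 in B (-1.96 to -1.71). No set of members came near its partners. Ccnd1, cyclin D1, was at 22.5, 22.2, 24.4 and 20.4 CPM against 194, 208, 108 and 58.9 CPM. At a common depth of 2000 UMIs per cell, taken as the mean over all possible draws of UMIs, a Ccnd1 UMI was found in 5.56% of members and 27.4% of partners in A, and in 3.92% and 12.2% in B. At full depth, these shares were 28.5% and 65.6% in A and 11.1% and 26.2% in B. The shares include members without a partner. Median depth was 17617 UMIs in all members and 14094.5 in partners of A, and 6418 and 5541 in B. Without matching, Ccnd1 was not called (-1.91 and -0.42). Of the inhibitors of cyclin-dependent kinases, 3 were higher: Cdkn3 (22.5-fold and 27.6-fold), Cdkn2c (51.6-fold and 14.3-fold) and Cdkn2d (log2 2.50 and 3.74). Cdkn1b, p27, was at 162, 183, 83.1 and 79.0 CPM against 47.6, 61.6, 36.5 and 46.6 CPM, which was just under 2-fold in B (1.97-fold) and so not called. Cdkn1c, p57, gave -0.85 and -0.45.

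DNA replication genes depended on the reference. Against matched partners 3 of 36 were higher and 9 lower, with medians of -0.62 and -0.24. With all cells without Mki67 or Top2a at 2000 UMIs each, 7 of 31 were higher and none was lower (medians -0.08 and 0.40). Against partners without any UMI of 9 cycle genes, 12 of 31 were higher and none was lower (0.61 and 0.89). Those 9 genes include Pcna and Mcm5 of this list, so that last result is partly set by the choice of partners. The matched partners had a median of 13634 and 15650 UMIs in A1 and A2, above the 9302 and 10173 of their class. Their share of 15 S-phase genes was 17.3 and 17.8 per 10000 UMIs in A1 and A2, against 11.1 and 10.9 in all cells without Mki67 or Top2a and 6.95 and 6.91 in members. The part of this in the result was not tested. Ung and E2f1 were not called under either of the other references. Ung, a uracil glycosylase made around S-phase entry, was nearly absent from members, at 0.605 CPM in A and 0.593 CPM in B against 52.1 and 24.7 CPM.

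**Figure D3:**
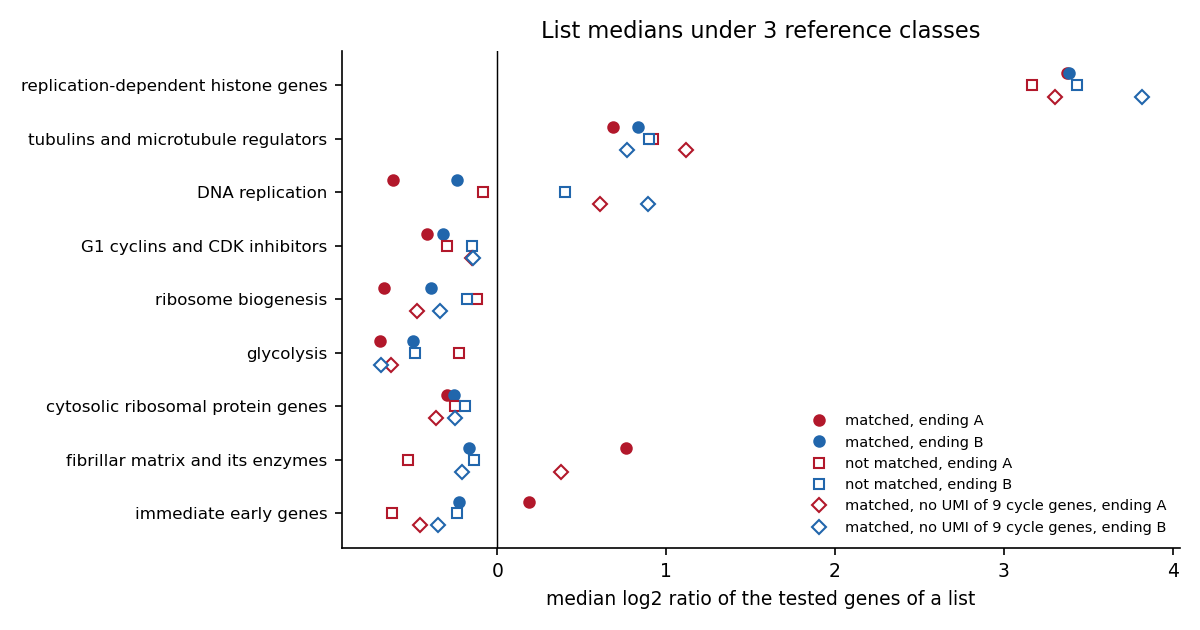
Median log2 ratio of the tested genes of 9 lists (x axis) in mitotic cells over 3 references: depth-matched cells without Mki67 or Top2a UMIs (filled circles), the same class unmatched at 2000 UMIs per cell (squares) and matched cells without UMIs of 9 cycle genes (diamonds); red, ending A; blue, ending B. Histone and tubulin medians are above 0 and ribosomal protein medians below 0 under each reference, while DNA replication, fibrillar matrix and immediate early genes change sign. The 9 cycle genes include Pcna and Mcm5 of the DNA replication list, so the diamonds of that list are partly set by the choice.

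The 6 genes lower under all 3 references, which are named after their values were seen, were Ccnd2, Srm, Aprt, Dnajb9, Fkbp11 and Plpp5. Srm, spermidine synthase, was at 58.4, 55.6, 62.0 and 58.6 CPM in members against 173, 205, 157 and 188 CPM, which is 0.306 of the partners' level in A and 0.353 in B. Aprt, which salvages adenine, was at 103, 106, 119 and 107 CPM against 268, 294, 252 and 304 CPM. For both genes the highest set of members lay below the lowest set of partners. Dnajb9 and Fkbp11 act in protein folding in the endoplasmic reticulum, with Fkbp11 at 13.6 CPM in A and 18.4 CPM in B against 37.7 and 96.3 CPM. Members of B held less hemoglobin RNA than their partners (1394 against 7349 CPM in B1), and 3 partners and 1 member of B had over 1% of UMIs from erythroid markers. Without such cells, all 34 lower genes were again lower, among 36.

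Ribosomal and glycolysis genes were mostly lower by less than the 2-fold limit, and respiratory chain genes were mixed. Over all genes tested, 1944 of 5880 were lower in both endings. All 80 tested cytosolic ribosomal protein genes were lower in both endings, with medians of -0.30 and -0.26 and none called. Their sum fell from 230646 to 187860 CPM in A, and all 80 were again lower against the reference without UMIs of 9 cycle genes, but 77 of 80 without matching. Of 32 tested ribosome biogenesis genes, a list chosen after values were seen, 29 were lower in both endings and 2 were called: Cd3eap, a subunit of RNA polymerase I, and Tsr1, which acts in maturation of the small subunit. The medians of -0.67 and -0.40 shrank to -0.12 and -0.18 without matching. Glycolysis showed 10 of 11 genes lower in both endings (medians -0.69 and -0.50, and -0.22 and -0.48 without matching), with only Hk2, hexokinase 2, called (though not without matching), at 35.9, 29.9, 97.5 and 90.5 CPM against 105, 68.2, 200.3 and 181 CPM. Aldoa (-1.05 and -0.65), Ldha (-0.82 and -0.50) and Pkm (-0.81 and -0.41) were not called. Of 85 nuclear respiratory chain genes, 46 were lower and 15 higher in both endings, with 1 called higher and medians of -0.17 and -0.02. CPM are shares of a cell's transcripts, and 4.04% to 4.58% of members' UMIs came from the cycle lists, against 1.06% to 1.26% in cells without Mki67 or Top2a. The part of this in the lower values was not tested.

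No gene of the signalling and identity lists was called in either direction, where 4.35% of all genes tested were called higher and 0.578% lower. At these shares, a list of 5 to 24 tested genes is too small for an absence of calls to say much. The lists were BMP (8 tested), Hedgehog (8), WNT (9), PDGF, FGF and IGF (11), Notch (5), fibrillar matrix (24), basement membrane (8), contractile genes (9), adhesion (10), gut mesenchyme transcription factors (12), Hox genes (14), imprinted genes (10), immediate early genes (17) and chaperones (11). Sums over marker genes did differ in ending B, but for genes of PDGFRA-high cells the direction there depended on the reference. The sums against S-phase-high cells are given below. The PDGFRA-high mesenchyme markers summed to 264 and 222 CPM in members of A1 and A2 against 259 and 201 CPM, but to 164 and 171 CPM in B1 and B2 against 272 and 234 CPM (log2 -0.61 in B, interval -0.83 to -0.38). A second list of genes of PDGFRA-high cells, chosen after values were seen, summed to 24.7, 41.0, 55.4 and 70.1 CPM in members against 35.1, 49.9, 172 and 132 CPM, lower in each set, with log2 ratios of -0.39 in A and -1.30 in B. Genes of mesenchymal subtypes, also chosen after values were seen, gave 0.57 in A and -0.77 in B, opposite directions. Pdgfra was at 181, 139, 85.3 and 76.4 CPM in members against 198, 125, 112 and 83.6 CPM, with intervals of -0.21 to 0.15 in A and -0.63 to 0.06 in B, both of which include 0. Ptch1, the Hedgehog receptor and target, gave log2 ratios of 0.05 and 0.39, and Bmp4 0.17 and 0.10. Nkx2-3, a gut mesenchyme factor, was at 640, 651, 666 and 599 CPM against 338, 370, 406 and 407 CPM, below 2-fold but higher in all 4 sets. Among Hox genes, Hoxb5 (0.87 and 0.79) and Hoxc4 (0.85 and 0.88) were higher and Hoxc8 (-0.74 and -0.59) and Hoxb7 (-0.67 and -0.82) lower in all 4 sets, all below 2-fold. Vim (0.56 and 0.40), Itgb1 (0.39 and 0.22) and Ncam1 (0.90 and 0.51) were higher in all 4 sets without being called. One direction in all 4 sets was common: of 5880 genes tested, 1273 were higher and 1150 lower in all 4.

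Matrix genes gave opposite values in the 2 endings. Col1a1, the main chain of collagen I, was at 2356 and 2065 CPM in members of A1 and A2 against 1318 and 959 CPM, but at 2340 and 2714 CPM in B1 and B2 against 2495 and 3443 CPM. The fibrillar list had medians of 0.76 in A and -0.17 in B, and without matching these were -0.53 and -0.13, so no direction is given. Col6a5, a marker of a fibroblast subtype, showed the same dependence: it was at 201.8 against 18.54 CPM in A with matching, and its log2 ratio there was 3.44 with and -0.43 without it.

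Beyond the lists, the 15 genes with the largest ratios at 50 CPM or more were Depdc1a, Esco2, Cdca2, Pimreg, Mxd3, Gas2l3, Dlgap5, Hist1h2ab, Cenpl, Psrc1, Lockd, Hist1h2ae, Knstrn, Arhgap19 and Fam83d, the last 2 with 0 UMIs in the partners of B. Depdc1a, a mitotic protein, was at 190, 207, 146 and 148 CPM in members against 3.97, 1.47, 3.53 and 0 CPM. Mxd3, a MAX-binding repressor, rose 52.3-fold and 51.0-fold, and Lockd, a noncoding RNA transcribed next to Cdkn1b, 25.9-fold and 25.2-fold. Esco2, the cohesin acetyltransferase, gave 5.59 and 6.20 on the log2 scale, and Gas2l3, a cytoskeletal linker, 5.43 and 5.86. The 15 with the smallest ratios were Cd3eap, Srm, Aprt, Isyna1, Cdca7, Cisd1, Tmem160, Arl6ip6, 2410002F23Rik, Tma16, Tro, Mak16, Slc39a7, Mettl1 and Scfd1. Only Cd3eap, Srm, Aprt, Isyna1 and Cisd1 of these were called, with Isyna1, an inositol phosphate synthase, at -1.29 and -1.38. Other genes were chosen after their values were seen. Arl6ip1, a protein that shapes the endoplasmic reticulum, was at 1185, 1331, 1175 and 1247 CPM in members and at 78.2, 87.3, 96.6 and 104 CPM in partners, 15.2-fold in A and 12.1-fold in B. It differed by a like amount in every set and under all 3 references (log2 3.28 to 4.02). Jpt1 rose 4.53-fold and 4.64-fold.

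**Figure D4:**
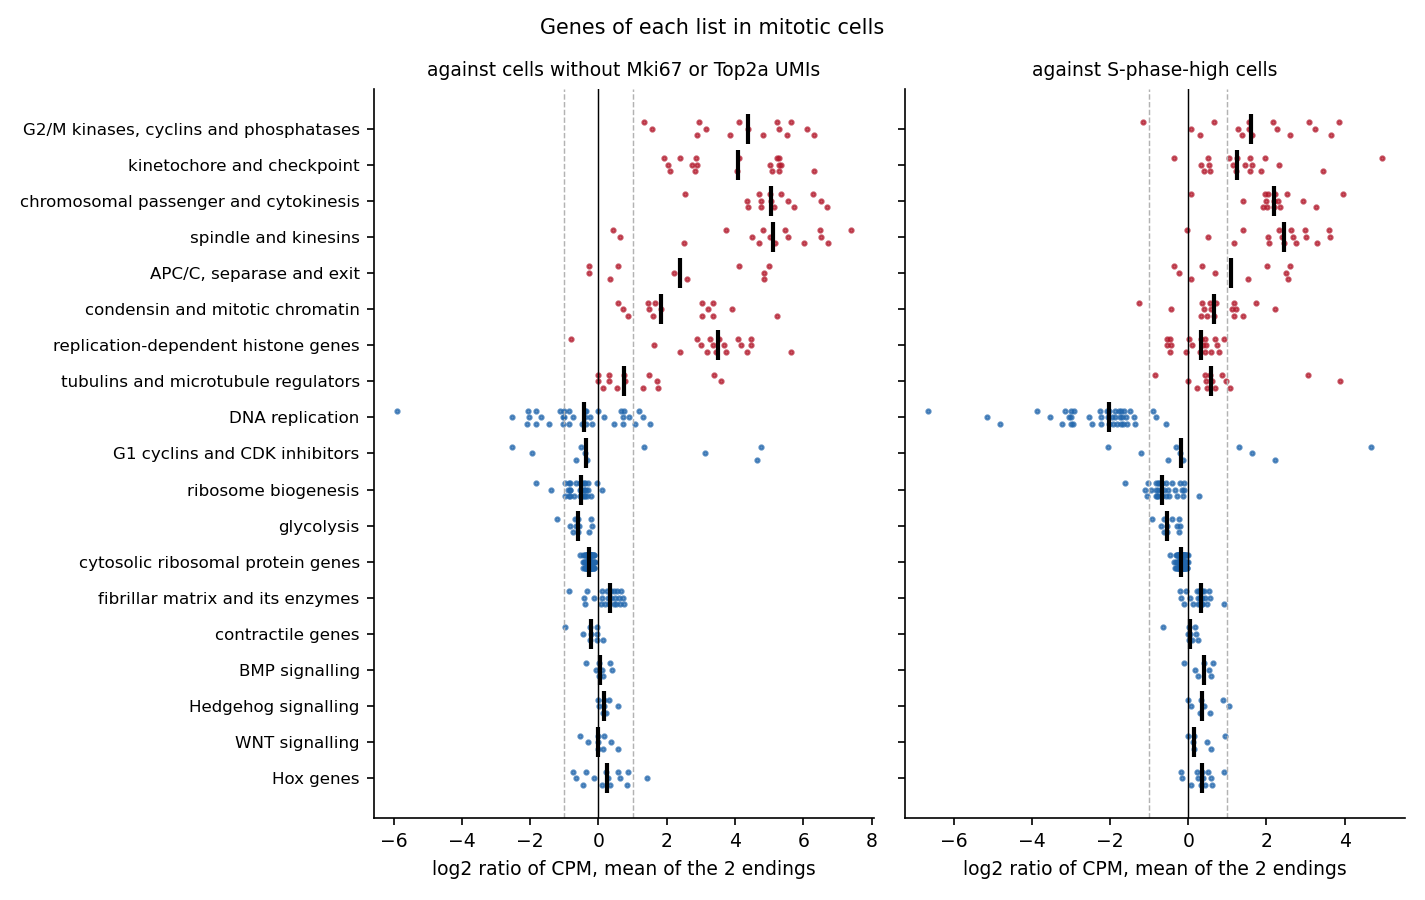
Log2 ratio of CPM, mean of both endings (x axis), for each tested gene of 19 lists (rows; points, genes; black bar, median of the drawn genes) in mitotic cells against depth-matched cells without Mki67 or Top2a UMIs (left) and against depth-matched S-phase-high cells (right); dashed lines mark 2-fold. Genes with 0 UMIs in a class are not drawn. DNA replication genes lie lower on the right, and histone genes, with a median above 3 on the left, lie near 0 on the right.

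The second comparison set members against S-phase-high cells, the 745 other cells in the top 8% of their ending for 15 genes of S-phase entry, again matched for depth (648 pairs). It separates what members share with other cycling cells from what they do not. Of 5845 genes tested, 171 were higher in mitotic cells (2.93%) and 166 lower (2.84%). The members are the same cells as before, so the 2 comparisons are not independent. Of the higher genes, 142 had also been higher than non-cycling cells, and of the lower genes 23 had been lower.

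Among the kinetochore genes, Cenpa differed most from S-phase-high cells. Cenpa was at 767, 800, 709 and 725 CPM against 24.8, 27.2, 17.6 and 28.1 CPM, 30.2-fold in A and 32.0-fold in B. No set of either class came near the other. Ccnb1 was at 329, 336, 362 and 385 CPM against 16.0, 27.2, 33.3 and 22.3 CPM, 15.9-fold and 13.2-fold. By contrast Cdk1 differed 2.67-fold and 2.52-fold and Ccna2 3.26-fold and 2.95-fold, since S-phase-high cells held both. At 2000 UMIs per cell, as the mean over all draws, a Ccnb1 UMI was seen in 47.1% of members, 3.86% of S-phase-high cells and 1.34% of cells without Mki67 or Top2a in A, and in 50.6%, 5.20% and 1.27% in B. The spread between single draws of the members' share was 2.44 percentage points in A and 2.14 in B (SD). Shares at full depth were 97.5%, 26.3% and 8.93% in A. In B they were 84.5% of members and 2.84% of cells without Mki67 or Top2a. The members' shares again include members without a partner, while the other classes are matched cells only. Epcam, an epithelial gene, was seen at the same depth in 2.87% and 2.89% of the cells without Mki67 or Top2a.

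Within the other lists, 12 of 16 G2/M genes, 13 of 19 kinetochore genes, 15 of 16 passenger and cytokinesis genes and 15 of 17 spindle genes were higher than in S-phase-high cells. Cdc25b, a phosphatase that activates CDK1, rose by 3.03 and 3.46 on the log2 scale. Pkmyt1, a kinase that inhibits CDK1, was lower (-1.23 and -1.10), as were Ncapg2 (-1.25 and -1.26), a condensin II subunit, and Ranbp1 (-1.11 and -1.02), a partner of RAN. Tuba1c (14.7-fold and 14.6-fold) and Tubb4b (9.41-fold and 7.42-fold) were the only tubulins called. Cdkn1b was called here, at 2.64-fold and 2.32-fold. Histone genes were not: 0 of 19 tested genes were called in either direction, with medians of 0.13 and 0.34.

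DNA replication genes were lower for 39 of 42, but 15 of the 42 had chosen the S-phase-high cells. Of the 27 that had not, 24 were lower. Outside the list, Slfn9 (-3.60 and -3.66), Tcf19 (-3.12 and -2.56) and Dnmt1, the maintenance DNA methyltransferase (-1.83 and -1.76), were also lower. E2f1 was at 10.4, 4.60, 5.51 and 4.34 CPM against 81.5, 83.4, 84.1 and 82.0 CPM, and Mybl2 at 6.62, 8.37, 6.42 and 3.25 CPM against 54.3, 56.6, 38.2 and 49.2 CPM. Foxm1 went the other way, 2.52-fold and 2.22-fold higher. Ccnd2 was lower also than in S-phase-high cells, at 480, 490, 425 and 373 CPM against 1125, 1109, 930 and 924 CPM, a log2 ratio of -1.21 in both endings. Srm was lower as well, with -1.51 and -1.54.

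Of the 171 higher genes, 79 were in the cycle lists, 3 in other lists and 89 in none. Ptms, an acidic chromatin-associated protein, rose 2.37-fold and 2.55-fold and Smtn, a smooth muscle cytoskeletal protein, 3.09-fold and 3.73-fold, and Arl6ip1 rose 12.5-fold and 10.2-fold. These genes were chosen after their values were seen. Pdgfra was at 187, 151, 79.8 and 80.3 CPM against 138, 114, 47.0 and 43.3 CPM, below 2-fold but with intervals above 0 (0.28 to 0.57 in A and 0.43 to 1.22 in B). The PDGFRA-high mesenchyme markers gave summed log2 ratios of 0.50 in A (interval 0.38 to 0.62) and 0.80 in B (0.53 to 1.08). For the second list of genes of PDGFRA-high cells these were 0.02 (-0.29 to 0.34) and 0.80 (0.34 to 1.27). In B, both directions were opposite to those against cells without Mki67 or Top2a. Ptch1 gave 0.31 and 0.79, and Fzd2, a WNT receptor, 0.74 and 1.16. Over all genes, 2007 of 5845 were lower in both endings, against 78 of 80 ribosomal protein genes, and 11 of 11 glycolysis genes, with medians of -0.49 and -0.45 and none called.

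Along the rule score itself, levels in ending A followed 3 courses, which describe the choice of the cells and support nothing. Ccnb1 was at 5.30 CPM in cells of A with no rule UMI and reached 101.5 CPM in the upper group of cells left out, then 262.5, 360.5 and 446.4 CPM in members ranked in the top 4% to 8%, 2% to 4% and under 2%. Mcm5, a helicase subunit, went up first and then down, at 76.7, 122.8, 144.5 and 100.3 CPM in the cells left out and 50.5, 34.7 and 38.0 CPM in members of A. Ccnd2 was at 1210 and 1275 CPM in the first 2 groups of A and at 421.3 CPM in the top 2%. In B, Ccnb1 went up through all 7 groups as in A, and Ccnd2 went down from the first group (1314, then 1219 CPM). Mcm5 was uneven in B, at 36.5, 64.3, 54.7 and 66.3 CPM in the cells left out and 27.6, 35.0 and 21.6 CPM in members. Gapdh, a glycolysis gene, was at 1128, 1382, 1497 and 1442 CPM in the 4 groups of A below the members and at 1252, 1196 and 1127 CPM in the 3 groups of members, so the members' levels lay around that of cells with no rule UMI.

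**Figure D5:**
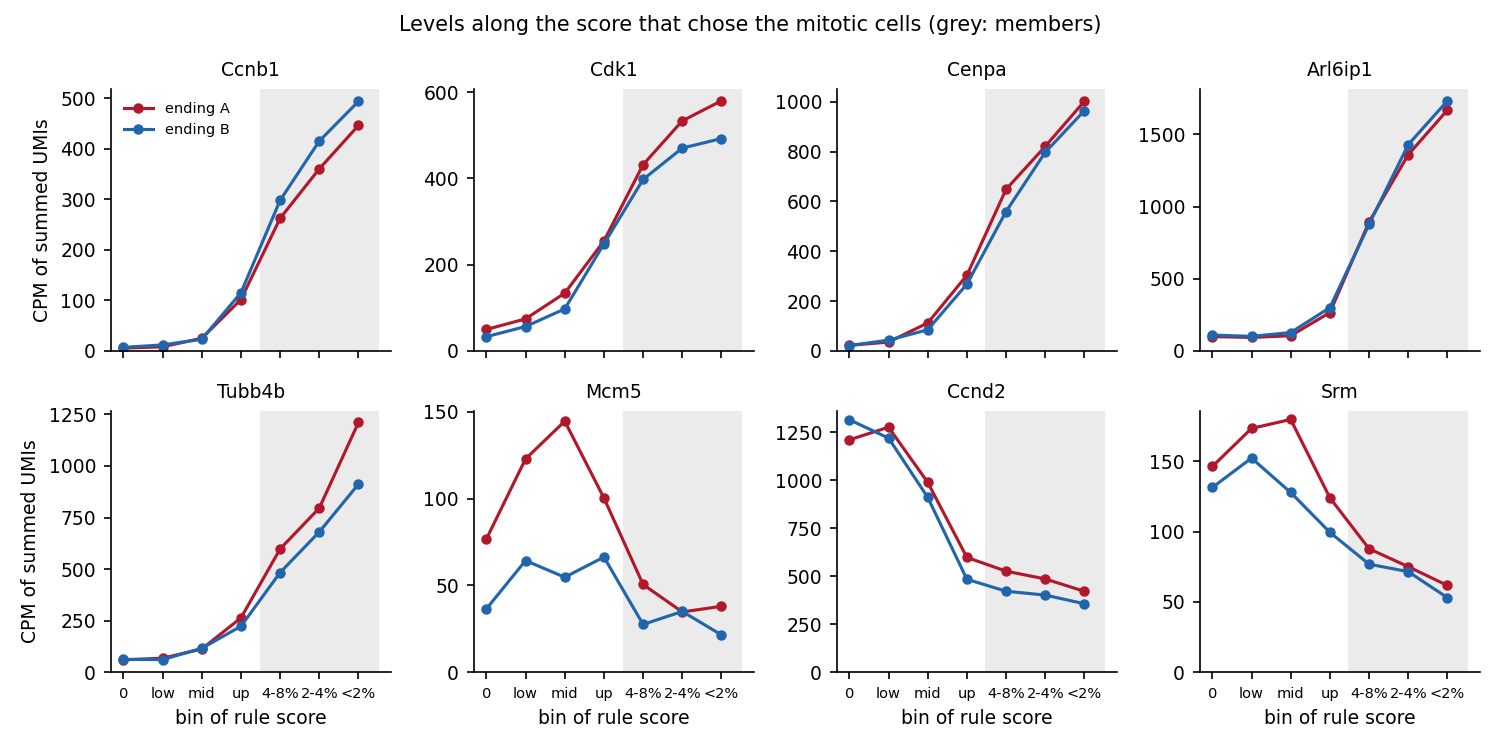
Level (y axis, CPM of summed UMIs) of 8 genes that were not used in the rule, in groups of cells by rule score (x axis: no rule UMI, 3 groups of equal size among the other cells left out, then members in the top 4 to 8%, 2 to 4% and under 2%, shaded); red, ending A; blue, ending B. Ccnb1, Cdk1, Cenpa, Arl6ip1 and Tubb4b go up into the members, and Ccnd2 and Srm are lower there.

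Members also varied among themselves. In each set they were split at the median of log2((Cdc20 + 1)/(Top2a + 1)) in UMIs, a split chosen after values were seen, with 182 members per side in A and 189 in B. Cdc20 and Top2a thus differ by construction. The depth of the sides was close, with medians of 18328 and 17052 UMIs in A and 6377 and 6490 in B. Histone genes lay on the Top2a side: all 7 with 50 CPM or more were higher there in all 4 sets. Hist1h1b, linker histone H1.5, was at 1460 CPM on that side and 521.7 CPM on the Cdc20 side in A, and at 366.7 and 149.1 CPM in B. Esco2 was at 104.6 and 39.5 CPM in A and at 116.9 and 53.1 CPM in B. DNA replication genes were higher on the Top2a side in all 4 sets for 11 of 15. Among 2898 genes at 50 CPM, 348 were higher on that side in all 4 sets and 382 on the other. The Cdc20 side was higher for Tubb4b (log2 0.44 and 0.55), Ccnb1 (0.43 and 0.32), Arl6ip1 (0.36 and 0.32) and Cep89, a centriole protein (0.77 and 0.82). Chaperones were higher there in all 4 sets for 6 of 10.

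Promoters of the genes that rose differed in composition from those of all genes tested, which is a description of letters and not of binding. With the rule genes left out, 248 genes were higher than in cells without Mki67 or Top2a, and 207 of them (83.5%) were matched to the RefSeq table. A gene counted when any of its windows held the letters on either strand. TTTGAA was found for 107 of the 207 genes (51.7%), against 14.7% of 4760 tested genes with a promoter in the table. Over the whole table it was found for 20.2% of 27025 genes and in 17.9% of 32851 windows. Within 50 bases of the start the shares were 36.7% of the 207 genes and 4.54% of the tested genes. Of the genes higher than in S-phase-high cells, 71 of 136 held TTTGAA (52.2%). The related cores TTTAAA and TTCGAA, both palindromes, were found for 14.5% and 9.18% of the 207 genes, against 10.6% and 2.82% of the tested genes. CCAAT was in 69.6% against 43.4%. TTTGAA was found for 11 of 14 matched passenger and cytokinesis genes, 12 of 17 spindle genes and 8 of 16 kinetochore genes. The genes that were lower, the G2/M kinases and the DNA replication genes were matched for fewer than 80% of members, so no share is given for them.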

How the data were processed

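UMI counts per gene and cell were deposited by the authors as 1 matrix of 6 pooled samples. Per the submitters' processing notes, Cell Ranger 2.1.1, Seurat and mm10 were used, and the authors' cell filter is not given in the sources used here. Sets were formed from barcode suffixes. Of 9495 barcodes in the 4 sets, 194 failed the limits on genes or mitochondrial UMIs. Older and newer symbols of the same gene (172 pairs) were joined. For CPM, the UMIs of a gene in all cells of a class were added and scaled by the UMIs of all genes. Intervals of log2 ratios are exact conditional binomial ones, and those of shares are Clopper-Pearson ones (scipy 1.17.1). Shares at 2000 UMIs are exact hypergeometric means over draws. Intervals cover counting error only, and a floor of 3 counts stands for a count of 0. No doublets were removed. Median depth per member was 17051 to 18586 UMIs in ending A and 6378 to 6445 in ending B. The text names the rule genes, list genes with the largest ratios up and down, genes with the 15 largest and 15 smallest ratios at 50 CPM beyond the lists (a selection of them against S-phase-high cells), and genes said to be chosen after their values were seen. The members and the lists were chosen with earlier results of these data known. The ratio step was tested on simulated data. With 186 changed genes among 5457, 98.9% of changed genes and 0% of unchanged genes were called in the comparison with non-cycling cells. Intervals covered the true ratio for 96.8%. The simulated counts varied by counting error only, and all planted changes lay beyond the 2-fold limit. These values thus check the calculation and give no error rate for the real data.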

Additional observations from a re-analysis of the deposited data

How the results depend on the processing

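With the matrix as 1 sample, no result has an error between embryos, cells could not be assigned to ages or sorts, and doublets may remain. No paired analysis was possible because no cell carries a sample label and no result comes from a test. The count of genes higher than in non-cycling cells was 249 to 307 over all alternatives, and the count lower was 53 with the top 4% of cells and 21 with the top 12%, against 34. Cells with both Xist and Y-linked transcripts, cells rich in hemoglobin and S-phase-high cells in the reference were left out as alternatives chosen after seeing the data. Of the 256 higher genes, 234 were higher again without matching and 243 against the reference without UMIs of 9 cycle genes, and of the 34 lower genes 7 and 14 were lower again. In the comparison with S-phase-high cells, 144 to 196 genes were higher and 114 to 217 lower. Values of named genes were counted once per alternative, so a gene can count more than once. Against non-cycling cells, 76 moved beyond their interval and 1635 did not, and against S-phase-high cells 68 did and 1463 did not. No called gene changed sign, and genes that were not called were not checked for sign. Shares of cells with a UMI depended on depth and on the random draw: at 2000 UMIs, a single draw gave Ccnb1 in 40.3% of members in A and 54.8% in B, where the mean over all draws, chosen after seeing the data and printed above, is 47.1% and 50.6%. In single draws of 1000 and of 3000 UMIs per cell, Ccnb1 was seen in 24.9% and 60.0% of members in A and in 28.4% and 64.5% in B, and at 1000 UMIs in 0.355% of partners in B. Pdgfra was seen in 12.1% and 40.5% of members and 16.5% and 34.8% of partners in A, and at 1000 UMIs in 6.32% of members and 11.3% of partners in B. In windows of 150 bases before to 50 after the start, TTTGAA was in 9.03% of tested genes.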
